A study of Mus musculus with 48 samples.

Results

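The colony-stimulating factors and their receptors were followed through 48 RNA libraries of mouse breast tumour cells and of myeloid cells sorted from mouse breast tumours. The members were the ligand genes Csf1, Csf2, Csf3 and Il34 and the receptor genes Csf1r, Csf2ra, Csf2rb and Csf3r, taken by symbol from the deposited gene count table. All 8 members had a line in the table, out of 24054 genes in all. The ligands were described mainly in the 8 cultured lines and the receptors mainly in the neutrophils and macrophages of the 4 tumours.

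Colony-stimulating factors are secreted proteins that drive the production, survival and activation of myeloid cells. Macrophage colony-stimulating factor, the product of Csf1, and interleukin 34 share the tyrosine kinase receptor encoded by Csf1r, which sustains monocytes and macrophages. Granulocyte-macrophage colony-stimulating factor, from Csf2, binds the alpha chain Csf2ra and signals through the common beta chain Csf2rb. Granulocyte colony-stimulating factor, from Csf3, acts on Csf3r and is the main driver of neutrophil production and release. Tumour cells that secrete these factors are known to recruit and shape the myeloid cells around them.

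Each of the 16 groups held 3 libraries. The cultured lines were PyMT-N, PyMT-M, AT3 and E0771 of strain C57BL/6 and 4T1, 67NR, 2208L and T11 of strain BALB/C, and no treatment was named for any of them. In the column names PyMT-N, 4T1, 2208L and AT3 carried the suffix Epi, and PyMT-M, 67NR, T11 and E0771 the suffix Mes. Each line is one stock at one stated passage range, given as 15 to 20 for 4T1, 2208L and T11, 19 for 67NR, 15 for AT3, 14 for PyMT-N and E0771, and 7 for PyMT-M. E0771 was grown in an RPMI medium with HEPES, while the other lines were grown in high-glucose DMEM. The sorted cells came from tumours named 2208L and T11, of strain BALB/C, and AT3 and E0771, of strain C57BL/6 but for 2 E0771 libraries named below. Macrophages were sorted as live CD45+ CD11b+ Ly6G- Ly6C- F4/80+ cells and neutrophils as live CD45+ CD11b+ Ly6G+ cells with medium to low Ly6C. The labels give no treatment, age or pooling for the animals. They also do not say that the 3 libraries of a group came from separate cultures or animals, so the replicate spread behind every p-value here may be technical.

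Counts outside Rn45s, the ribosomal RNA precursor, ran from 683150 to 1755895 in macrophages, 470712 to 1185233 in neutrophils and 1893268 to 5749088 in cultured lines. Levels below are in CPM, the counts of a gene per 1000000 counts outside Rn45s in the same library, and levels compared between genes are CPM per kilobase of exon. The level per base of exon over 1439 olfactory and vomeronasal receptor genes, which these cells are not known to use, served as the background. That background took up 869 to 3239 CPM in macrophages, 3857 to 18864 CPM in neutrophils and 617 to 2962 CPM in cultured lines, and was highest in T11 neutrophils. PyMT-M and E0771 cultures were close to each other, with 6.43% of genes called different between them against 38.3% for the next closest of the 28 line pairs. E0771 neutrophil replicate 1 and E0771 macrophage replicate 1 are labelled BALB/C while the other E0771 libraries are labelled C57BL/6. Among the receptors, T11 neutrophil replicate 1 was above the rest of its group in Csf3r and Csf2ra, T11 neutrophil replicate 2 was below it in Csf1r, and AT3 neutrophil replicate 1 was below its group in Csf3r and Csf2rb.

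Ligand and receptor genes rose above the background in different groups. At a threshold of at least 10 times the background per base of exon, ligands passed in 22 of 32 combinations of a gene and a line, while receptors passed in 0 of 32. Receptors passed in 16 of 16 combinations in macrophages and in 15 of 16 in neutrophils, where Csf2ra in T11 stood at only 4.8 times the background. Ligands passed in 5 of 16 combinations in macrophages and in 4 of 16 in neutrophils, and those 4 were Csf1 in each tumour. The 5 in macrophages, named after their values were seen, were Csf1 in 2208L, AT3 and E0771, Il34 in T11 and Csf2 in E0771, where Csf2 and Il34 rested on few counts. The background itself had a median of 0.302 CPM per kilobase in macrophages, 1.64 in neutrophils and 0.255 in lines, so the threshold was highest in neutrophils. The share of all genes that pass it is not given here, so these counts have no share to be set against.

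**Figure D1:**
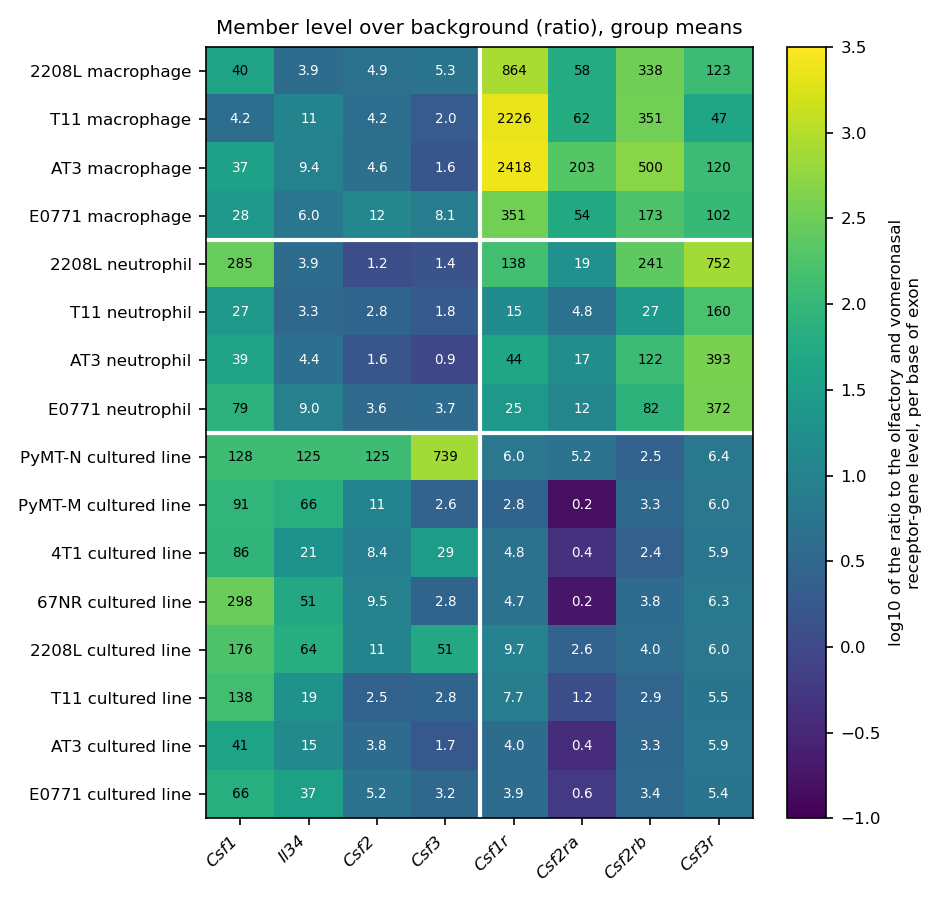
Ratio of each member's group mean to the olfactory and vomeronasal receptor-gene level per base of exon, printed in each cell and coloured on a log10 scale, for 4 macrophage groups, 4 neutrophil groups and 8 cultured lines. Csf1r reaches 2226 and 2418 in T11 and AT3 macrophages, Csf3 reaches 739 in the PyMT-N line, and no receptor reaches 10 in a cultured line.

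Among the members, Csf2 and Csf3 held the highest densities of an AU-rich pentamer in the 3′ untranslated region. AU-rich elements in the 3′ untranslated region, built on the pentamer ATTTA, are a known means by which cytokine mRNAs are marked for rapid decay. Csf2 held 9 ATTTA pentamers in 317 bases of 3′ untranslated region, or 28.4 per kilobase, and 0.0528% of 20829 coding genes were at least as dense. Csf3 held 6 in 669 bases, or 8.97 per kilobase, and 1.55% of genes were at least as dense. The densities were 1.89 per kilobase for Csf1, 1.65 for Il34 and 1.8 for Csf1r, against a median of 1.26 over all genes, and Csf2ra, Csf2rb and Csf3r held 0. The longer AU-rich form TTATTTATT, found in 7.72% of coding genes, occurred 4 times in Csf2 and 0 times in Csf3 and each other member. The densest 30-base windows of the outlying pair are shown because these are the ligands that differed most between lines, read from GENCODE M21 transcripts on build mm10 (chr11:54247329-54247358, minus strand, for Csf2 and chr11:98702984-98703013, plus strand, for Csf3). Capitals mark the ATTTA pentamers, and a match is a description of the letters only.
Csf2 3′ untranslated region: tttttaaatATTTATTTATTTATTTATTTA
Csf3 3′ untranslated region: gatagtttATTTAtctctATTTAatATTTA

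Csf3, the granulocyte factor, was abundant in a single line and measurable in 2 more. The gene lies at chr11:98701263-98703629 on the plus strand of mm10. It stood at 147, 141 and 137 CPM in the PyMT-N libraries, from 836, 534 and 662 counts, against 0.595, 0.749 and 1.09 CPM in the PyMT-M libraries. Every PyMT-N library was far above every PyMT-M library, and the PyMT-M values lay near the background. The fitted log2 difference was 7.68 ± 0.23 (SE, n = 3 libraries each), with an edgeR adjusted p of 4.82e-49. In the second pair Csf3 had 24.4, 17.2 and 17.9 CPM in 4T1, against 1.84, 0.689 and 1.05 CPM in 67NR, and in the third 12, 11.5 and 15.7 CPM in 2208L, against 0.71, 1.92 and 0 CPM in T11. Neither pair overlapped, and the log2 differences were 3.79 ± 0.30 and 3.76 ± 0.36 (edgeR adjusted p = 1.14e-19 and 1.23e-15). In AT3 it had 1.24, 1.04 and 0.494 CPM, against 0.948, 0.982 and 1.51 CPM in E0771, values that overlapped at the background and did not pass the test (adjusted p = 0.528). The 5 lines without clear Csf3 held 0 to 8 counts per library, and no order can be read among them. PyMT-N averaged 142 ± 4.77 CPM, 4T1 19.8 ± 4 CPM and 2208L 13.1 ± 2.29 CPM (SD, n = 3 each). The ranges of 4T1 and 2208L did not overlap, yet their fitted difference of 0.18 ± 0.19 on the log2 scale did not pass the test (edgeR adjusted p = 0.438).

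Csf2, the granulocyte-macrophage factor, lies at chr11:54247271-54249667 on the minus strand, with Il3 as its nearest coding neighbour 15636 bases away. It had 15.1, 13 and 12.7 CPM in PyMT-N, from 86, 49 and 61 counts, against 2.08, 1.5 and 2.18 CPM in PyMT-M, from 7, 4 and 6 counts. All PyMT-N libraries were above all PyMT-M libraries, and PyMT-N was the only line whose range stood clear of the next line in order. The log2 difference was 3.05 ± 0.33 (edgeR adjusted p = 1.4e-13). In 4T1 it had 2.49, 3.96 and 3.36 CPM, against 2.53, 1.15 and 3.16 CPM in 67NR (adjusted p = 0.53), and in AT3 0.62, 1.57 and 1.23 CPM, against 1.26, 1.18 and 0.756 CPM in E0771 (adjusted p = 0.95). Both of those pairs overlapped. In 2208L it had 1.33, 1.56 and 1.8 CPM, from 6, 5 and 7 counts, against 0.355, 0.962 and 0 CPM in T11, from 1, 3 and 0 counts. The 2208L values were above the T11 values, but at these few counts the edgeR adjusted p of 0.0494 passed narrowly. The call was lost without the low-count filter, with scaling on genes above background, with DESeq2 and with the replicate number as a block (0.0534 to 0.0883), and without any 1 of 5 of the 6 libraries (0.0569 to 0.174), all but T11 replicate 2. By mean level PyMT-N stood at 13.6 ± 1.34 CPM, 4T1 at 3.27 ± 0.739, 67NR at 2.28 ± 1.03, PyMT-M at 1.92 ± 0.37, 2208L at 1.56 ± 0.235, AT3 at 1.14 ± 0.48, E0771 at 1.07 ± 0.272 and T11 at 0.439 ± 0.487 CPM (SD, n = 3 each), and each line after PyMT-N overlapped the next.

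Csf1, the macrophage factor, was present in every line and differed less. The gene lies at chr3:107741048-107760469 on the minus strand. It had 219, 227 and 216 CPM in 4T1, against 469.7, 480.1 and 468 CPM in 67NR, and a log2 difference of -1.30 ± 0.10 (edgeR adjusted p = 9.88e-21). The 67NR libraries were the highest of all lines and the 4T1 libraries came next, without overlap between them. In 2208L it had 162, 170.0 and 171 CPM, against 171, 172 and 145 CPM in T11, and in PyMT-N 93.3, 88.8 and 93.3 CPM, against 119, 116 and 88.4 CPM in PyMT-M. Those pairs overlapped, with adjusted p of 0.237 and 0.887. In AT3 it had 77.8, 85.4 and 80.2 CPM, against 89.2, 96.6 and 85.5 CPM in E0771, which nearly met and gave a log2 difference of -0.30 ± 0.11 (edgeR adjusted p = 0.0206). That call was lost with scaling on genes above background (-0.07, adjusted p = 0.539), without E0771 replicate 2 (-0.19) and without AT3 replicate 1 (-0.18). By mean level the order was 67NR at 473 ± 6.4 CPM, 4T1 at 221 ± 5.46, 2208L at 168 ± 4.71, T11 at 163 ± 15, PyMT-M at 108 ± 16.7, PyMT-N at 91.8 ± 2.58, E0771 at 90.4 ± 5.68 and AT3 at 81.2 ± 3.87 CPM (SD, n = 3 each). The ranges of 2208L and T11 overlapped, as did those of PyMT-M, PyMT-N and E0771, and AT3 lay just below E0771.

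Il34, the second ligand of the receptor encoded by Csf1r, lies at chr8:110741829-110805924 on the minus strand. It had 23.3, 22.1 and 22.4 CPM in 2208L, against 4.62, 7.06 and 13.7 CPM in T11, a log2 difference of 1.64 ± 0.21 (edgeR adjusted p = 1.4e-10). The 2208L libraries lay close together and above the T11 libraries, which were spread widely. It was lower in 4T1, with 20.9, 19.8 and 18.3 CPM, against 29, 28.3 and 33.7 CPM in 67NR (log2 difference -0.83 ± 0.17, adjusted p = 2.21e-05). It was also lower in AT3, with 10.5, 9.57 and 11.8 CPM, against 17.4, 18.5 and 19.4 CPM in E0771 (log2 difference -0.95 ± 0.18, adjusted p = 6.08e-06). Neither of those pairs overlapped. In PyMT-N it had 37.4, 34.4 and 27.8 CPM, against 27.4, 27 and 33.1 CPM in PyMT-M, an overlapping pair with a log2 difference of 0.45 ± 0.15 (adjusted p = 0.00712) that did not pass without PyMT-M replicate 2 (0.35) or without PyMT-N replicate 1 (0.32). By mean level the order was PyMT-N at 33.2 ± 4.91 CPM, 67NR at 30.3 ± 2.96, PyMT-M at 29.2 ± 3.43, 2208L at 22.6 ± 0.635, 4T1 at 19.7 ± 1.34, E0771 at 18.4 ± 1.01, AT3 at 10.7 ± 1.15 and T11 at 8.47 ± 4.72 CPM (SD, n = 3 each). The first 3 of these overlapped, as did 4T1 with E0771 and AT3 with T11.

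**Figure D2:**
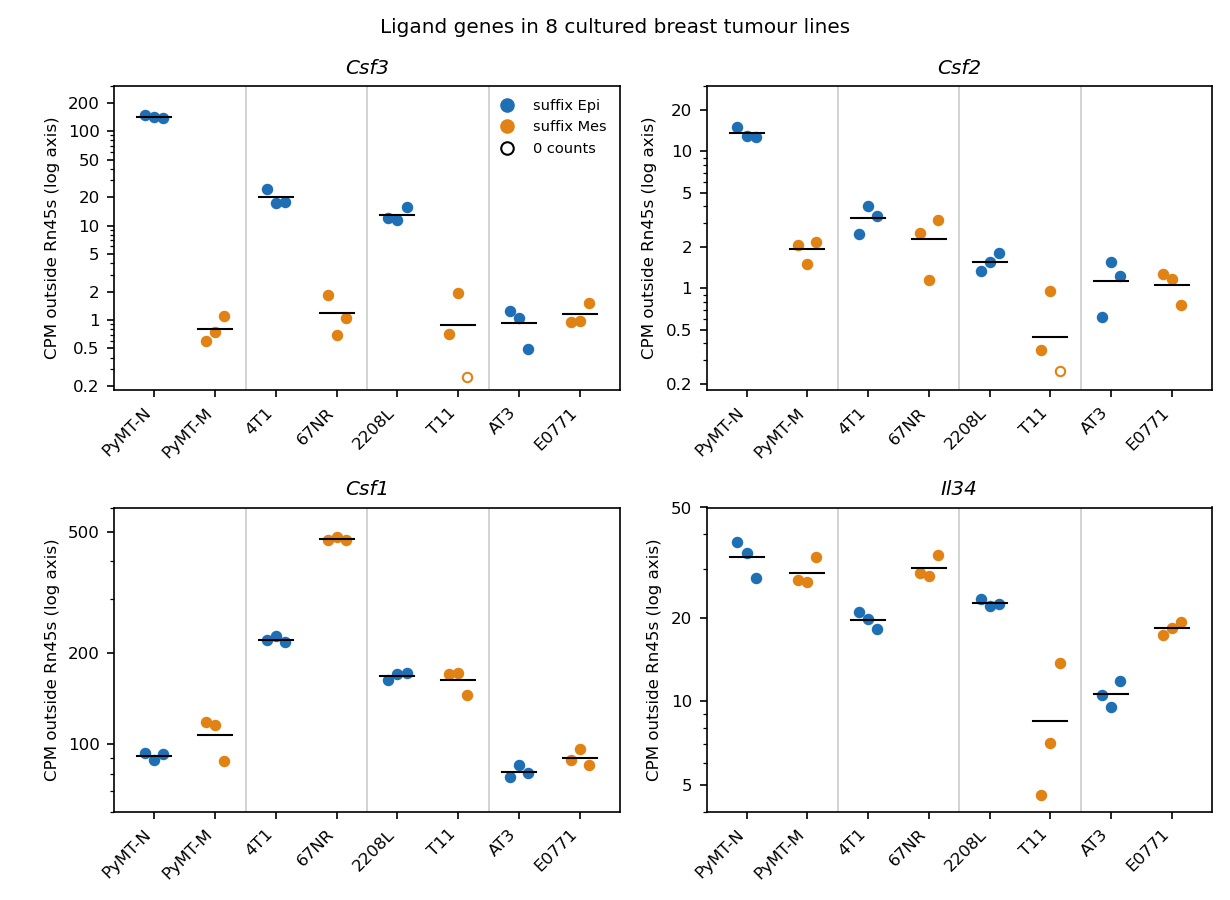
CPM outside Rn45s of Csf3, Csf2, Csf1 and Il34 in 3 libraries of each of 8 cultured lines, on log axes, with black bars for the means, blue for suffix Epi, orange for suffix Mes and hollow points for libraries with 0 counts. Csf3 averages 142 CPM in PyMT-N, 19.8 in 4T1 and 13.1 in 2208L and stays at or below 1.92 CPM in every library of the other 5 lines, while Csf1 is highest in 67NR.

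The test for any difference among the 8 lines called all 4 ligands, and it called 89.3% of the 18183 genes tested. In PyMT-N against PyMT-M 3 ligands were called, all higher, with 45.1% of genes called, 23.3% higher and 21.8% lower. In 4T1 against 67NR 1 was higher and 2 were lower, with 47.5% of genes called, 22.1% higher and 25.4% lower. In 2208L against T11 3 were higher, with 41.6% called, 22.5% higher and 19.1% lower. In AT3 against E0771 2 were lower, with 45.8% called, 19% higher and 26.8% lower. These shares of ligands stand on a background in which a large part of all genes differed between lines. The spread of Csf3 was wide even so, since its line means spanned 6.68 on the log2(CPM + 1) scale, against a median of 1.24 over all genes, and 0.319% of genes had a larger range. The range was 3.67 for Csf2, 2.61 for Csf1 and 2.21 for Il34, with 4.83%, 10.9% and 15% of genes having a larger one.

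Averaged over the 4 pairs, the Epi lines had more Csf3 and Csf2 and less Csf1 than the Mes lines, and Il34 did not pass the test. The mean log2 differences were 3.69 ± 0.28 for Csf3 (edgeR adjusted p = 1.41e-21), 1.28 ± 0.26 for Csf2 (2.33e-05), -0.35 ± 0.05 for Csf1 (1.26e-08) and 0.08 ± 0.09 for Il34 (0.519), in a comparison that called 48% of genes, 22% higher and 26% lower in Epi lines. The average rests on pairs that differ, and the libraries, not the lines, are its replicates. Csf3 was higher in the Epi line of 3 of the 4 pairs. The epithelial markers Epcam, Krt7, Krt8 and Krt18 summed to 3633 to 3659 CPM in PyMT-N, 2239 to 2553 in 4T1 and 3664 to 3917 in 2208L, the lines with clear Csf3. They summed to only 61 to 72.9 CPM in AT3, against 151 to 183 in E0771, so the markers go against the suffix Epi of AT3, and their part in the ligand levels was not tested. Without the PyMT pair the Csf3 difference was 2.36 (adjusted p = 3.56e-11), while that of Csf2 was 0.69 and no longer passed (adjusted p = 0.0855). The test of a difference between the 4 pairs called all 4 ligands, where it called 70.3% of genes, with edgeR adjusted p of 6.04e-16 for Csf3, 1.2e-15 for Il34, 4.25e-16 for Csf1 and 1.18e-05 for Csf2.

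Csf1r, the receptor of Csf1 and Il34, was the most abundant receptor in the macrophages, at 402 CPM per kilobase in 2208L, 584 in T11, 508 in AT3 and 192 in E0771, where Csf2rb came next with 158, 92.1, 105 and 94.9. It lies at chr18:61100598-61132149 on the plus strand and shares 873 exon bases with Hmgxb3 on the other strand. It had 2679, 2173 and 2119 CPM in 2208L macrophages, against 787, 818 and 729.9 CPM in 2208L neutrophils. It had 2988, 3753 and 3376 CPM in T11 macrophages, against 326, 130.5 and 289 CPM in T11 neutrophils. In these tumours every macrophage library stood above every neutrophil library. The levels were 3093, 2748 and 2952 CPM in AT3 macrophages, against 499.6, 574 and 410.0 CPM in AT3 neutrophils, and 1006, 1069 and 1258 CPM in E0771 macrophages, against 215, 233 and 210.3 CPM in E0771 neutrophils. Again no values overlapped, and E0771 macrophages were the lowest macrophage group. The mean log2 difference over the 4 tumours was 3.25 ± 0.20 (edgeR adjusted p = 1.48e-18), and the receptor was called in each tumour. In libraries made from many sorted cells, fewer cells of a type and less RNA per cell cannot be told apart.

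Csf3r, the receptor of the granulocyte factor, showed the opposite order. It lies at chr4:126024550-126044440 on the plus strand. It had 234, 227 and 162 CPM in 2208L macrophages, against 2277, 3204 and 2489.5 CPM in 2208L neutrophils. It had 20.2, 42.7 and 69.7 CPM in T11 macrophages, against 2552, 1031 and 1372 CPM in T11 neutrophils. The macrophage values were far below the neutrophil values in both tumours. The levels were 65.4, 96.2 and 111 CPM in AT3 macrophages, against 1303, 3743 and 3185 CPM in AT3 neutrophils, and 207, 182 and 214 CPM in E0771 macrophages, against 1674, 2286 and 2214 CPM in E0771 neutrophils. No tumour showed overlap, although AT3 neutrophil replicate 1 was well below its group. The mean log2 difference was -3.63 ± 0.23 (edgeR adjusted p = 2.14e-18), and Csf3r was called in each tumour.

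The Csf3r promoter is shown because it belongs to the receptor with the largest fitted difference between the cell types. It is taken from RefSeq on GRCm38.p6 (chr4:126024409-126024708, plus strand), runs from 250 bases before to 50 after the start, and has in capitals the letters GAGGAA, a core recognised by PU.1, the master factor of myeloid genes. On either strand this motif occurs in 28.3% of 32851 promoters of the same length, so its presence here is common. Both strands of the promoters of Csf1, Csf2, Csf2ra and Csf3r were searched for GAGGAA, for the NF-kB motif, for the AP-1 letters TGANTCA (in 7.81% of all promoters), the C/EBP letters TTNNGNAA (40.7%) and the core promoter box TATAAA (13.6%). The C/EBP letters were found once in Csf2 and in Csf2ra, GAGGAA also in Csf2ra at 2 places, and the AP-1 and core box letters in none of these windows. The Csf2 window (chr11:54249850-54250149, minus strand) lies wholly upstream of the gene as placed above (chr11:54247271-54249667). The bases next to that annotated gene start were therefore not searched, and no absence of a motif there can be read.
Csf3r promoter: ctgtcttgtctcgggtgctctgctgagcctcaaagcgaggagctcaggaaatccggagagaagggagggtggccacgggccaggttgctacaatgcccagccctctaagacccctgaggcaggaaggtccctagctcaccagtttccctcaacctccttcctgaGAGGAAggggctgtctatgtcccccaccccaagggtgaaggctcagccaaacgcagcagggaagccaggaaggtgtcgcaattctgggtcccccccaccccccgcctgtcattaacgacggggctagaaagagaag

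Csf2ra, the alpha chain for the granulocyte-macrophage factor, and Csf2rb, its signalling beta chain, differed much less between the cell types. Csf2ra lies at chr19:61223957-61228429 on the minus strand. It had 83.7, 79.8 and 70.2 CPM in 2208L macrophages, against 54.5, 59.9 and 48 CPM in 2208L neutrophils, and 49.3, 49 and 42.5 CPM in T11 macrophages, against 63, 26.5 and 28.9 CPM in T11 neutrophils. The 2208L values did not overlap and the T11 values did, through T11 neutrophil replicate 1. It had 115, 124 and 129.7 CPM in AT3 macrophages, against 96.4, 92.6 and 89.99 CPM in AT3 neutrophils, and 88.5, 84.9 and 80.0 CPM in E0771 macrophages, against 41.3, 64.2 and 48.9 CPM in E0771 neutrophils, with no overlap. The mean log2 difference was 1.16 ± 0.16 (edgeR adjusted p = 1.06e-08), but it was 0.08 and not called (adjusted p = 0.594) when the libraries were scaled on genes above background.

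Csf2rb lies at chr15:78325752-78353847 on the plus strand. Its near copy Csf2rb2, a beta chain specific to interleukin 3 in mice, lies 20031 bases away at chr15:78282507-78305721 on the minus strand. Of the 50-base windows of Csf2rb, 18.4% also occur in Csf2rb2, so counts of the pair may be split by the counting and remain uncertain. Csf2rb had 1302, 1264 and 877 CPM in 2208L macrophages, against 1602, 1972 and 1582 CPM in 2208L neutrophils, and 599, 763 and 649.8 CPM in T11 macrophages, against 754, 375 and 589.9 CPM in T11 neutrophils. The neutrophils were higher in 2208L without overlap, and the T11 groups overlapped. It had 736, 869 and 684 CPM in AT3 macrophages, against 866, 2486 and 1817 CPM in AT3 neutrophils, and 564, 782 and 727 CPM in E0771 macrophages, against 717, 1069.8 and 973 CPM in E0771 neutrophils. AT3 neutrophil replicate 1 lay inside the AT3 macrophage range while the other AT3 neutrophil libraries were higher, and the E0771 groups overlapped. The mean log2 difference of 0.18 ± 0.19 did not pass the test (edgeR adjusted p = 0.379), and it turned to -0.87 (adjusted p = 2.74e-07) with scaling on genes above background. Csf2rb2 gave 0.65 ± 0.18 (adjusted p = 0.00126), -0.41 with that scaling, and 0.03 without the T11 tumours (adjusted p = 0.911). With both genes summed into 1 the difference was 0.30 ± 0.20 (adjusted p = 0.154).

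**Figure D3:**
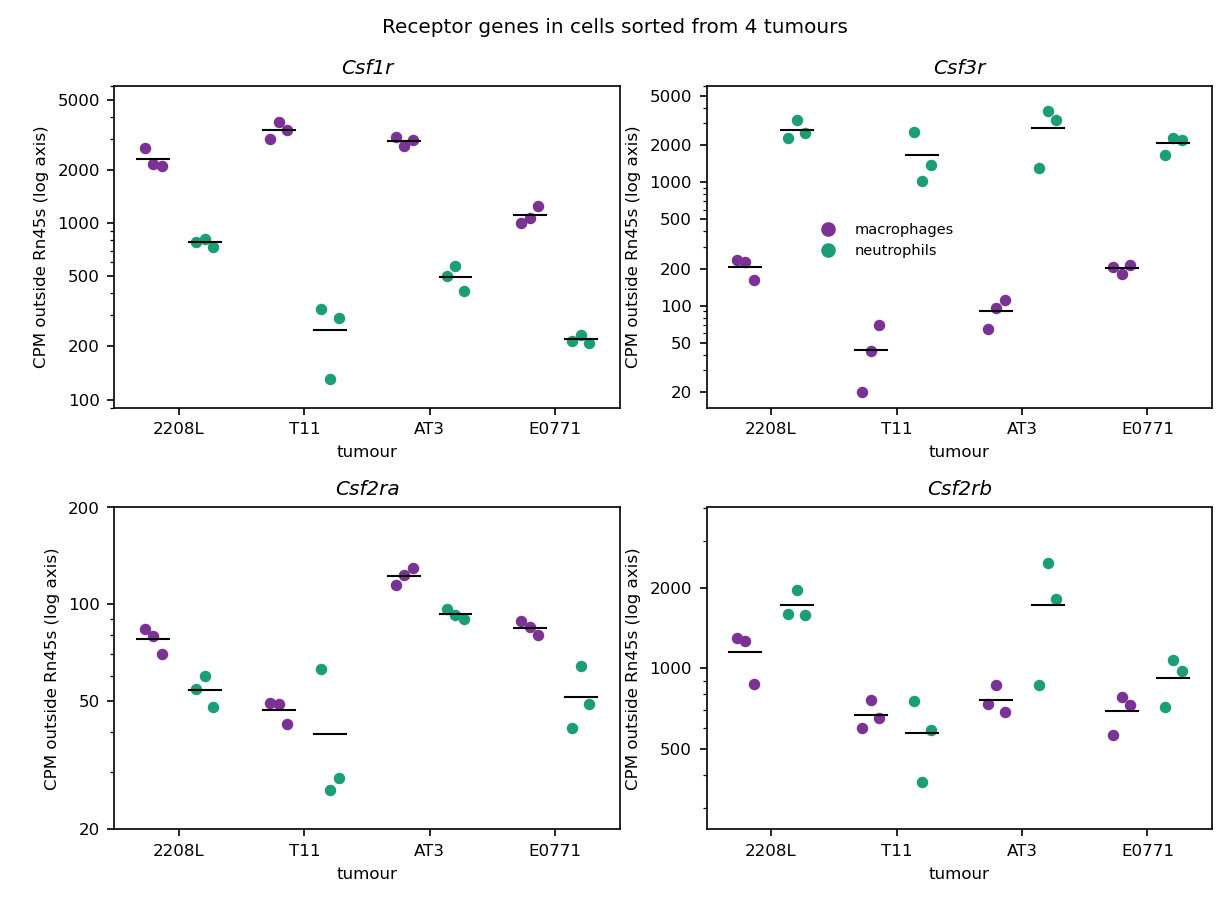
CPM outside Rn45s of Csf1r, Csf3r, Csf2ra and Csf2rb in 3 libraries each of macrophages (purple, left) and neutrophils (green, right) of 4 tumours, on log axes, with black bars for the means. Csf1r is higher and Csf3r lower in every macrophage library than in every neutrophil library of the same tumour, while the Csf2rb groups overlap in T11, AT3 and E0771.

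Macrophages against neutrophils thus called 3 of the 4 receptors, with 76.5% of the 19056 genes tested called, 31.2% higher and 45.4% lower in macrophages. That comparison depends on the scaling. With the scaling taken from genes at least 10 times above background, the median of all genes moved to -1.52 from -0.43 on the log2 scale, and 7.38% of genes were called higher and 75% lower. Csf1r then stood at 2.17, Csf3r at -4.67 and Csf1 at -4.46, each still called, while the call of Csf2ra and the direction of Csf2rb depend on which genes the libraries are scaled to. The standard scaling factors of the T11 neutrophils were 1.56 to 1.85, and the fitted differences include these factors while the CPM values do not. Without the E0771 libraries labelled BALB/C, Csf1r gave 3.29, Csf2ra 1.14 and Csf3r -3.64, and the same 3 receptors were called.

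The tumours differed in the size of these gaps. For Csf1r the log2 difference between macrophages and neutrophils was 1.92 ± 0.38 in 2208L, 4.94 ± 0.44 in T11, 3.32 ± 0.41 in AT3 and 2.84 ± 0.40 in E0771. For Csf3r it was -3.34 ± 0.45 in 2208L, -4.08 ± 0.47 in T11, -4.24 ± 0.47 in AT3 and -2.86 ± 0.44 in E0771. Both receptors were called in each tumour. The comparison called 9.12% of genes in 2208L (5.99% higher, 3.13% lower), 68.5% in T11 (30.4% and 38.1%), 51.9% in AT3 (21.9% and 30%) and 18.4% in E0771 (12.5% and 5.91%). Csf2ra was called in T11, AT3 and E0771 but not in 2208L (0.85 ± 0.30, edgeR adjusted p = 0.0675), and Csf2rb was called, higher, in T11 alone (1.41 ± 0.39, adjusted p = 0.00204), where it reversed to -0.46 and Csf2ra to -0.45 with scaling on genes above background. That scaling also ended the Csf2ra calls in AT3 (0.04, adjusted p = 0.905) and E0771 (0.32, 0.347), and it called Csf2rb lower in AT3 (-1.51, 1.76e-05) and E0771 (-0.81, 0.0186) but not in T11 (0.11). The test of a difference between tumours called 2 of the 4 receptors, Csf1r (adjusted p = 0.000292) and Csf2rb (0.0251), with 28.2% of genes called. Without the T11 tumours neither was called (0.136 and 0.659), and Csf2rb was also lost with scaling on genes above background (0.0845), with RLE size factors (0.054) and without T11 macrophage replicate 2 (0.0954), T11 neutrophil replicate 2 (0.0919) or T11 neutrophil replicate 3 (0.0643). Csf2ra and Csf3r gave 0.729 and 0.17, but Csf3r passed with scaling on genes above background (0.000418) and without AT3 neutrophil replicate 1 (0.0278).

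**Figure D4:**
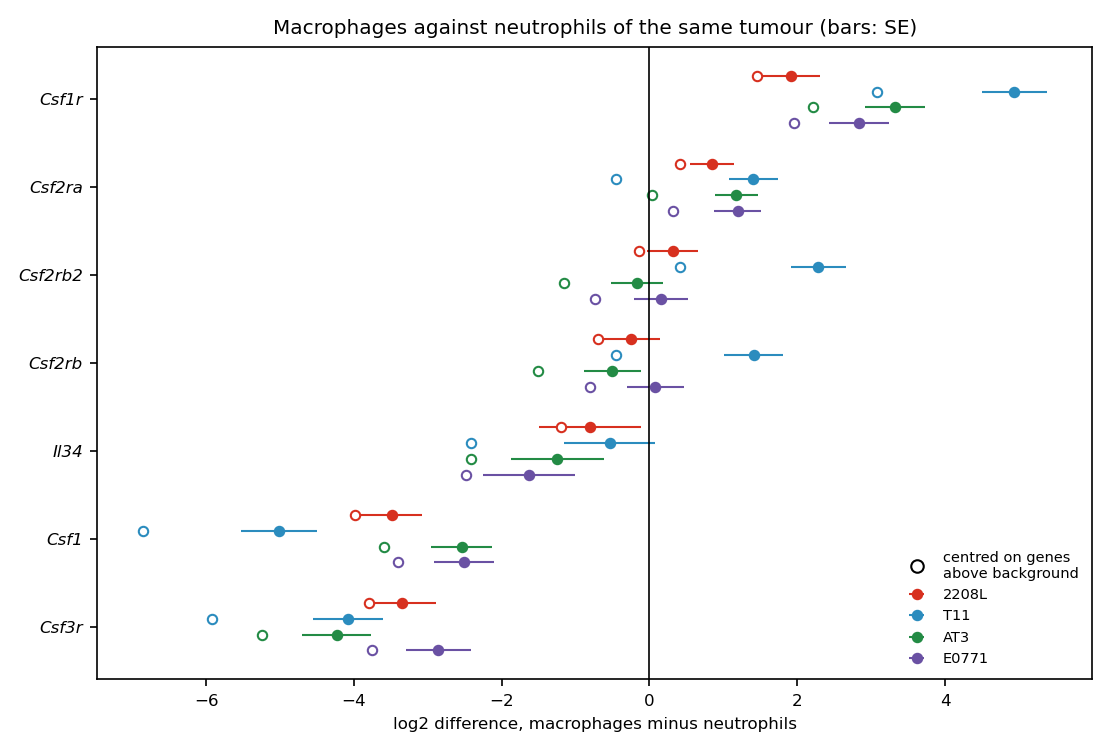
Log2 difference, macrophages minus neutrophils, of 7 genes in each of 4 tumours, with bars for the SE and hollow points for the values after scaling on genes above background. Csf1r lies right of 0, and Csf1 and Csf3r left of 0, in every tumour under both scalings, while Csf2ra, Csf2rb2 and Csf2rb cross 0.

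Marker genes of each cell type were also found in libraries of the other. At 10 times the background, 9 of 9 macrophage markers passed in macrophages and 8 of 9 in neutrophils, and 7 of 11 neutrophil markers passed in macrophages and 9 of 11 in neutrophils. Neutrophil libraries held the 9 macrophage markers at a median of 34.9% of the macrophage level in 2208L (29.4% to 48%), 27.7% in T11 (9.4% to 141%), 31.6% in AT3 (13% to 44.5%) and 19.2% in E0771 (8.77% to 39.8%). Csf1r itself stood in neutrophils at 33.5% of its macrophage level in 2208L, 7.37% in T11, 16.9% in AT3 and 19.8% in E0771, and in T11 that was below each of the 9 markers. The summed CPM of that list was 15817 to 22891 in macrophages against 4746 to 6736 in neutrophils of 2208L, 4004 to 5535 in macrophages against 728 to 1256 in neutrophils of T11, 14575 to 16519 in macrophages against 2649.8 to 4294 in neutrophils of AT3 and 6912 to 12373 in macrophages against 1280.4 to 1372 in neutrophils of E0771. In the other direction, macrophages held Csf3r at 7.81% of the neutrophil level in 2208L, 2.68% in T11, 3.31% in AT3 and 9.76% in E0771. The 11 neutrophil markers stood in macrophages at a median of 7.32% of the neutrophil level in 2208L (0.342% to 23.8%), 3.33% in T11 (0.154% to 3176%), 2.43% in AT3 (0.0273% to 23.2%) and 25.2% in E0771 (0.0776% to 129.5%). Within that list the alarmin S100a8 stood at 0.0495% to 0.519% of its neutrophil level, and the chemokine receptor Cxcr2 at 0.261% to 1.56%. The summed CPM of the 11 neutrophil markers was 55.3 to 146 in macrophages against 5114 to 7485 in neutrophils of 2208L, 3106 to 7901 in macrophages against 1735 to 4734 in neutrophils of T11, 46.7 to 88.1 in macrophages against 10057 to 21321 in neutrophils of AT3 and 127 to 278 in macrophages against 4765 to 7372 in neutrophils of E0771. The T11 sum was carried by the gelatinase gene Mmp9, at 5975 CPM in T11 macrophages against 188 CPM in T11 neutrophils. No marker was at 0 across a cell type, Ly6g itself has no line in the table, and the part of other cells in the receptor levels was not tested.

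Csf1 was the one ligand clearly present in sorted cells, and by CPM it was higher there in neutrophils. It had 150.2, 113 and 34.5 CPM in 2208L macrophages, against 1302, 1686 and 1435 CPM in 2208L neutrophils. It had 5.23, 3.99 and 8.14 CPM in T11 macrophages, from 7, 7 and 9 counts, against 559, 265 and 419 CPM in T11 neutrophils. Neutrophils were higher without overlap in both tumours. The levels were 44.1, 43.7 and 36.3 CPM in AT3 macrophages, against 272, 506 and 404 CPM in AT3 neutrophils, and 47.6, 119 and 73.8 CPM in E0771 macrophages, against 532, 728 and 656 CPM in E0771 neutrophils. The same order held without overlap in both of these tumours too. The mean log2 difference was -3.39 ± 0.22 (edgeR adjusted p = 4.72e-18), with -3.49 ± 0.42 in 2208L, -5.01 ± 0.51 in T11, -2.54 ± 0.41 in AT3 and -2.51 ± 0.41 in E0771, all called. These gaps differed between tumours (adjusted p = 0.00707), though not without the T11 tumours (0.348). In each tumour the neutrophil CPM of Csf1 also lay above that of the cultured line of the same name, which had 168 ± 4.71 CPM for 2208L, 163 ± 15 for T11, 81.2 ± 3.87 for AT3 and 90.4 ± 5.68 for E0771 (SD, n = 3 each). Relative to the background per base of exon the order was not the same in each tumour. Neutrophils stood at 285 times the background against 176 for the line of 2208L, and 78.8 against 66.5 for E0771. They were lower in T11 (27.3 against 138) and AT3 (38.6 against 41). Macrophages stood at 40.3 times the background in 2208L, 4.18 in T11, 27.7 in E0771 and 37.3 in AT3. On this measure macrophages and neutrophils of AT3 were therefore close, and neutrophils were higher in the other tumours. Sorted cells and cultures were fitted apart, so these statements on lines and neutrophils have no test.

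The Csf1 promoter is shown because Csf1 was the ligand that reached high levels in both lines and neutrophils. It comes from RefSeq on GRCm38.p6 (chr3:107760420-107760719, minus strand), again from 250 bases before to 50 after the start, with a match to the NF-kB motif on the reverse strand in capitals, whose first base lies at -154 from the start. NF-kB is a family of inflammatory transcription factors, and its motif occurs in 4.51% of the 32851 promoters.
Csf1 promoter: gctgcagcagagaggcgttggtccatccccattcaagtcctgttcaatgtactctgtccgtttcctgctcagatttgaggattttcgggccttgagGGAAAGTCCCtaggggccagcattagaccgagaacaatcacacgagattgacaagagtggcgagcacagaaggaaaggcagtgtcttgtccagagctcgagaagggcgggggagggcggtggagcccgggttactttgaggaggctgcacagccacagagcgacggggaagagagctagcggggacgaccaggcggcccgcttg

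**Figure D5:**
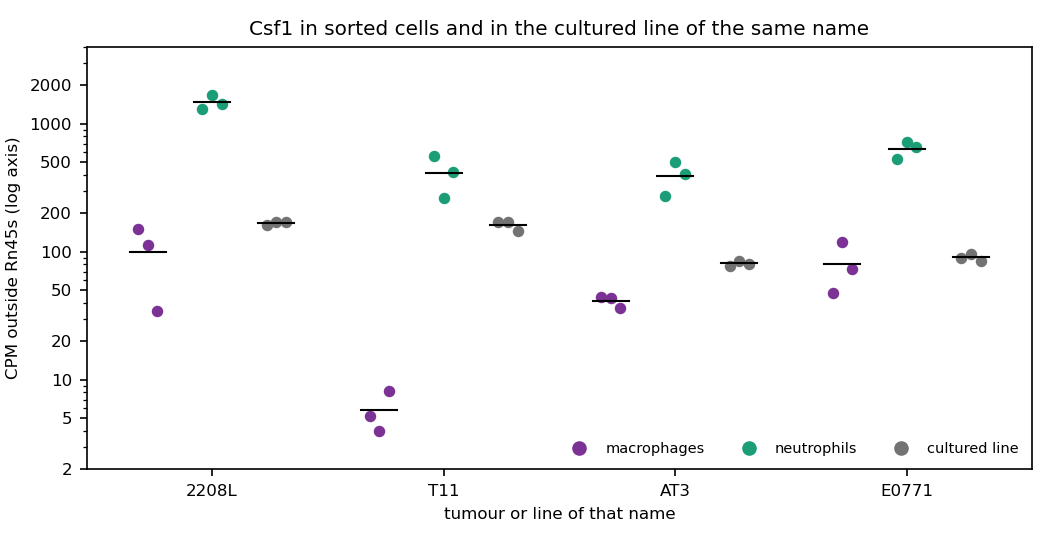
CPM outside Rn45s of Csf1 on a log axis in macrophages (purple), neutrophils (green) and the cultured line of the same name (grey), 3 libraries each, with black bars for the means. By CPM, with no correction for the higher background of neutrophil libraries, neutrophils are highest in each of the 4 tumours, and T11 macrophages, at 3.99 to 8.14 CPM, are the lowest group.

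Il34 in sorted cells rested on few reads, with 2.24 to 8.97 CPM in macrophages, from 3 to 12 counts, against 6.75 to 39.6 CPM in neutrophils, from 6 to 24 counts. Its mean log2 difference of -1.05 ± 0.32 passed the test (edgeR adjusted p = 0.00327), but its ratio to the background per base of exon was 3.92 to 10.5 in macrophages and 3.3 to 9 in neutrophils. Csf2 and Csf3 were not tested in sorted cells. Csf2 held 0 to 7 counts per macrophage library and 0 to 4 per neutrophil library, and Csf3 held 0 to 11 and 0 to 7.

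Among neutrophils, the tumours differed in Csf1, Csf1r, Csf2ra and Csf2rb, while Csf3r did not pass the test. The edgeR adjusted p over the 4 tumours was 0.000215 for Csf1, 4.61e-05 for Csf1r, 0.000951 for Csf2ra, 0.00434 for Csf2rb and 0.196 for Csf3r, with 33.4% of genes called. Csf3r did pass without AT3 neutrophil replicate 1 (0.00853) and with DESeq2 (0.0206). In 2208L against T11, log2 differences were 2.41 ± 0.47 for Csf1, 2.21 ± 0.41 for Csf1r, 2.16 ± 0.54 for Csf2rb and 1.00 ± 0.33 for Csf2ra, all called higher, where 34.6% of genes were called, 19.6% higher and 15% lower. With scaling on genes above background these became 1.05, 0.87 and 0.80, still called, and Csf2ra turned to -0.34 (and was not called without 2208L replicate 2, T11 replicate 2 or T11 replicate 3), while the median of all genes moved to -1.62 from -0.21 and the called genes to 2.46% higher and 69.3% lower. The macrophage markers in these neutrophils summed to 4746 to 6736 CPM in 2208L against 728 to 1256 in T11, and 2649.8 to 4294 in AT3 against 1280.4 to 1372 in E0771, and their part in the differences was not tested. In AT3 against E0771 the neutrophils had more Csf1r (1.45 ± 0.40, adjusted p = 0.0334) and more Csf2ra (1.09 ± 0.31, 0.037), with 4.55% of genes called, 2.40% higher and 2.15% lower. Neither call of that pair held when only those groups were fitted (0.0794 and 0.0775) or when any AT3 or E0771 neutrophil library but AT3 replicate 1 was left out (0.0616 to 0.154 for Csf1r, 0.0678 to 0.199 for Csf2ra).

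Among macrophages, Csf1, Csf3r and Csf1r varied most between tumours, with 1.46%, 17% and 24.2% of genes having a larger range of tumour means. The edgeR adjusted p over the 4 tumours was 6.93e-07 for Csf1r, 9.49e-07 for Csf1, 1.46e-05 for Csf3r, 8.39e-05 for Csf2ra and 0.0149 for Csf2rb, with 37% of the 13933 genes tested called. 2208L macrophages had more Csf1 than T11 macrophages (log2 difference 4.09 ± 0.49, adjusted p = 2.1e-07) and more Csf3r (2.17 ± 0.32, 7e-06), where 16.8% of genes were called, 8.46% higher and 8.37% lower. Their Csf2rb difference of 0.69 ± 0.24 passed narrowly (0.0433), was lost without any 1 of 5 of the 6 libraries, all but 2208L replicate 3, and had an adjusted p of 0.0562 to 0.177 with the replicate block, with Rn45s kept or without the low-count filter. Their Csf1r difference of -0.62 ± 0.23 did not pass (0.0554), although it did with DESeq2 (0.0327) and without 2208L replicate 1 (0.00858). AT3 macrophages had more Csf1r than E0771 macrophages (1.83 ± 0.23, 1.73e-06) and more Csf2ra (0.98 ± 0.25, 0.00834), where 18.6% were called, 9.37% higher and 9.27% lower. Csf3r in that pair gave -0.71 ± 0.30 (0.0974) and Csf1 gave -0.51 ± 0.40 (0.38), neither of which passed, although Csf3r did with scaling on genes above background (-0.97, 0.0229) and with only those groups fitted (-0.85, 0.0244). Macrophage markers summed to 14575 to 16519 CPM in AT3 macrophages against 6912 to 12373 in E0771 macrophages, dendritic cell markers to 16.8 to 20.0 against 165 to 503, and T and NK cell markers to 17.5 to 25.2 against 163 to 199, and their part in the differences was not tested. In 2208L against T11 macrophages, macrophage markers summed to 15817 to 22891 CPM against 4004 to 5535. Epithelial markers summed to 187 to 377 against 10.9 to 21.6, and T and NK cell markers to 95.6 to 203 against 19.4 to 29. The neutrophil markers S100a8, S100a9 and Cxcr2 averaged 4.92, 21.6 and 7.9 CPM against 1.42, 2.23 and 0.99. Mmp9 had 15.3 against 5975 and Camp 0.426 against 1.4. The part of these markers was not tested either.

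The wider pathway was followed through 6 lists of 104 genes in all. Between Epi and Mes lines, where 22% of all genes were called higher and 26% lower, the cytokine-receptor relatives and their ligands had 5 of 10 tested genes higher and 2 lower, and the signalling list had 10 of 27 higher and 5 lower. The feedback and survival targets had 6 of 13 higher and 1 lower, the myeloid transcription factors 8 of 17 and 4, the inducers of the ligand genes 8 of 23 and 7, and the mRNA decay factors 6 of 11 and 2. The list medians ran from 0.02 for signalling to 0.38 for the receptor relatives, against 0.00 over all genes. Without the PyMT pair the decay list had 2 higher and 3 lower, in a comparison whose share of all genes called is not given here. The pairs differed. In AT3 against E0771 the transcription factors had 0 higher and 7 lower, the inducers 2 and 10 and the decay factors 0 and 3. Of all genes 19% were higher and 26.8% lower there. In 2208L against T11, with 22.5% and 19.1%, these lists had 9 and 2, 11 and 4, and 5 and 1. The test of a difference between the 4 pairs called 14 of 17, 20 of 23 and 11 of 11 of their genes, against 70.3% of all genes.

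Feedback genes of cytokine signalling were among the largest of these changes. Socs2, a suppressor of cytokine signalling, was higher in Epi than in Mes lines by 3.24 ± 0.12 on the log2 scale, as was Cish, a STAT5 target of the same family, by 1.46 ± 0.18, whereas Socs1 was lower (-1.37 ± 0.17). The kinase gene Jak2 and the phospholipase gene Plcg2 were higher (1.26 ± 0.06 and 1.41 ± 0.08), and Jak1 and the lipid phosphatase gene Inpp5d were lower (-0.46 ± 0.05 and -0.61 ± 0.10). Il1a, an inflammatory cytokine that induces colony-stimulating factors, was higher (2.85 ± 0.19), as was the AP-1 subunit Junb (1.20 ± 0.07), and the AP-1 subunit Fosl1 was lower (-0.78 ± 0.17). The levels were uneven, since Il1a averaged 108 ± 186 CPM in Epi lines against 1.99 ± 0.874 CPM in Mes lines. Socs2 averaged 60.6 ± 49.2 CPM against 11.5 ± 17.3 CPM (SD, n = 12 libraries each). Jun was called lower, at 47.7 ± 38 CPM in Epi lines against 136 ± 60.9 CPM in Mes lines (SD, n = 12 libraries each), and since all 3 PyMT-N libraries held 0 Jun counts no fold is given. The interleukin 3 receptor chain Il3ra and the syndecan Sdc1 were higher (1.88 ± 0.32 and 1.04 ± 0.05), and the growth factors Kitl and Flt3l were lower (-0.97 ± 0.06 and -0.77 ± 0.22). Of the decay factors, the RNase gene Zc3h12a and the AU-rich element binder Zfp36 were higher (0.68 ± 0.14 and 0.65 ± 0.16), Zfp36l2 was lower (-0.55 ± 0.05), and Khsrp was lower (-0.20 ± 0.08), a call lost under 4 of the other settings. The transcription factor Egr1 was higher (1.72 ± 0.18), and Fli1 and Klf4 were lower (-0.80 ± 0.18 and -0.74 ± 0.09). Inpp5d, Il3ra, Zc3h12a, Zfp36, Egr1 and Fli1 were not called without the PyMT pair. Several of the named genes averaged only a few CPM in Epi against Mes lines. Cish had 6.28 against 2.35 CPM, Socs1 3.18 against 9.81, Il3ra 3.66 against 1.67 and Flt3l 2.43 against 4.23. Fosl1 had 4.19 against 6.90 CPM, Fli1 4.05 against 6.07, Zc3h12a 8.94 against 5.07 and Zfp36 7.60 against 4.26.

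In macrophages against neutrophils the counts of the lists turned on the scaling, as did those of all genes, with 31.2% higher and 45.4% lower against 7.38% and 75% with scaling on genes above background. The signalling list had 26 of 28 genes higher and 1 lower, but 6 higher and 10 lower with the second scaling. The receptor relatives had 2 of 9 higher and 6 lower, and 0 and 8 with that scaling, the feedback targets 3 of 12 and 3, and 1 and 9, and the transcription factors 10 of 18 and 5, and 7 and 9. The inducers had 6 of 22 higher and 7 lower, and 1 and 18 with that scaling, and the decay factors 6 of 11 and 0, and 0 and 8. List medians were 1.19 for signalling, 0.76 for the transcription factors, 0.48 for decay, 0.15 for inducers, -0.27 for feedback and -0.90 for the receptor relatives, against -0.43 over all genes. Without the T11 tumours the signalling list had 18 higher and 1 lower, in a fit whose share of all genes called is not given here.

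Some genes of the lists kept both direction and call under either scaling. The monocyte and macrophage factor Irf8 was higher in macrophages (2.15 ± 0.15), as were the adaptor Dok2 (2.46 ± 0.18), the phosphatase gene Dusp6 (1.61 ± 0.17) and Nfatc1 (1.55 ± 0.16), a factor of osteoclast formation. Il1b, the inflammatory cytokine interleukin 1 beta, averaged 492 CPM in macrophages against 4889.8 CPM in neutrophils, a log2 difference of -3.32 ± 0.24. Egr1 was lower in macrophages (-2.20 ± 0.22), as were Pim1 and Osm, STAT5 targets (-1.36 ± 0.19 and -1.25 ± 0.19), and Jak2 (-0.53 ± 0.16). Cebpb was called lower (-1.42 ± 0.49) at 2.06 CPM in macrophages against 9.19 CPM in neutrophils. The interleukin 5 receptor chain Il5ra and its ligand Il5 were called lower too (-1.82 ± 0.30 and -1.74 ± 0.53), at 5.95 and 2.64 CPM in macrophages against 33.4 and 13.5 CPM in neutrophils. These 3 genes differ about as the summed background does, and its part in their calls was not tested (median 1616 CPM in macrophages against 8772 CPM in neutrophils). Dok1, Nfkb1 and Khsrp were higher (1.54 ± 0.25, 1.33 ± 0.16 and 1.37 ± 0.15) but not called with scaling on genes above background. Pim3, Sdc1 and the RNA stabiliser Elavl1 were higher (0.83 ± 0.27, 0.76 ± 0.18 and 1.04 ± 0.16) and turned to -0.22, -0.31 and -0.04 with it, none of which passed.

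The genes whose levels followed each member most closely are given as a description, over 24 libraries that share lines or sorts and depth. Across the cultured lines, where 11791 genes were compared, Csf3 was most like Tns4 (Pearson r = 0.984 on the log2(CPM + 1) scale), B4galnt3 (0.978) and Lama3 (0.968). Csf1 was most like Paxip1 (0.949), Btg1 (0.943) and Cenpe (0.939), Csf2 like Ikbke (0.911), Lasp1 (0.910) and Qk (0.910), and Il34 like Taf10 (0.862), Fam46b (0.859) and Mpnd (0.85). Across the sorted libraries, where 16686 genes were compared, Csf1r was most like Ucp2 (0.978), Cyfip1 (0.969) and Nckap1l (0.967). Csf3r was most like Ptgs2 (0.978), the prostaglandin synthase of inflammation, Hcar2 (0.977) and the chemokine gene Ccl3 (0.975). Csf2ra was most like Klf4 (0.856), Ifngr1 (0.849) and Cotl1 (0.847), and Csf2rb like Neurl3 (0.870), Adipor1 (0.867) and Vmp1 (0.860).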

How the data were processed

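Per the submitters' processing notes, the authors used bcl2fastq 2.17 and STAR 2.4.2a with build mm10, and they deposited 1 table of raw counts per gene for all 48 libraries. The counting program, annotation and strand setting are not given in the sources used here. The 3 columns named PyMTE were assigned to PyMT-N by elimination. The counts are whole numbers, and the row of Rn45s, which held 55.0% to 76.2% of counts in macrophages, 26.8% to 70.3% in neutrophils and 3.88% to 14.9% in lines, was left out. The 8 members were matched by symbol to GENCODE M21 for coordinates and exon lengths.

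Counts were tested with edgeR 4.0.16 (quasi-likelihood test, TMM scaling, filterByExpr with a minimum count of 10 and a minimum total of 15) in R 4.3.3 with limma 3.58.1. P-values were adjusted by Benjamini-Hochberg over all genes of a fit, and the threshold for a call was 0.05. Lines (18183 genes), neutrophils (17202), macrophages (13933) and all sorted cells (19056) were fitted apart. The SE is the log2 difference divided by the square root of F. CPM was computed here from counts outside Rn45s, without TMM factors. Alternatives were RLE size factors, no low-count filter, Rn45s kept, TMM over genes above background, DESeq2 1.42.0, a replicate block, only the groups compared, and each library left out (72 fits). Fits without the PyMT pair, without T11 tumours, with Csf2rb and Csf2rb2 summed, and without E0771 libraries labelled BALB/C were added after seeing the data. The fits were tested on simulated data.

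The members and the pathway lists were chosen with earlier results of these data known. Named genes were the members, Csf2rb2, up to 2 higher and 2 lower called genes of each list by size of difference, and the 3 genes most like each member by Pearson correlation among genes averaging at least 5 CPM. One gene named by this rule is not reported here. Figures were drawn with matplotlib 3.10.9 in Python 3.11.15, and tables were handled in pandas 2.3.3.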

Additional observations from a re-analysis of the deposited data

Results flagged for a closer look

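In cultured lines, the difference between the Epi and the Mes line of a pair was itself different among the 4 pairs for Csf1 (edgeR adjusted p = 4.25e-16), Csf2 (1.18e-05), Csf3 (6.04e-16) and Il34 (1.2e-15). The same test gave 0.045 for Csf2rb, whose levels in the lines were 2.39 to 3.98 times the background per base of exon, and that call was lost with RLE size factors (0.0528), with Rn45s kept (0.0509), with DESeq2 (0.0979) and with the replicate block (0.0502). In sorted cells, the difference between macrophages and neutrophils was itself different among the 4 tumours for Csf1 (edgeR adjusted p = 0.00707), Csf1r (0.000292), Csf2rb (0.0251) and Csf2rb2 (0.000894). Without the T11 tumours these 4 gave 0.348, 0.136, 0.659 and 0.727, and none passed.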

How the results depend on the processing

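Counts of members called changed by over 1.5 times in 5 comparisons. In AT3 against E0771 lines 2 ligands were called, against 1 with scaling on genes above background and 1 to 2 with each library left out. Of all genes 19% were higher and 26.8% lower there, and 32.1% and 18.4% with that scaling. In AT3 against E0771 neutrophils 2 receptors were called, against 1 with that scaling, 0 with only those groups fitted and 0 to 3 with each library left out. Of all genes 2.40% were higher and 2.15% lower there, and 0.663% and 1.95% with that scaling. The shares with only those groups fitted are not given here. In 2208L against T11 macrophages 2 were called, against 1 without the low-count filter, 1 with Rn45s kept, 4 with DESeq2 and 1 to 2 with each library left out. The all-gene shares there were 8.46% higher and 8.37% lower. They were 4.7% and 4.95% without the filter, 7.77% and 7.9% with Rn45s kept and 10.2% and 7.79% with DESeq2. Macrophages against neutrophils in T11 called 4 receptors, against 2 with scaling on genes above background. Of all genes 30.4% were higher and 38.1% lower, and 6.58% and 71.6% with that scaling. The difference between macrophages and neutrophils among tumours called 2, against 1 with RLE size factors, 0 without T11 tumours and 1 to 3 with each library left out. It called 5374 of all genes, and 5465 with RLE size factors. Scaling on genes above background reversed Csf2ra in 2208L against T11 neutrophils (-0.34), Csf2rb and Csf2rb2 in macrophages against neutrophils (-0.87 and -0.41), Csf2ra and Csf2rb in T11 (-0.45 and -0.46), and Csf2rb and Csf2rb2 in E0771 (-0.81 and -0.74), and the cause was not tested. It also moved the count of all genes called to 11481 from 5741 across neutrophils, to 12352 from 5950 in 2208L against T11 neutrophils, to 450 from 782 in AT3 against E0771 neutrophils, and to 6423 from 3504 in macrophages against neutrophils of E0771.

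Same-numbered libraries did not deviate together, with a correlation above 0.1 in 5 of 84 pairs of lines, 0 of 18 of macrophages, 2 of 18 of neutrophils and 2 of 12 of macrophages with neutrophils. Macrophage and neutrophil columns of a tumour share numbers that the labels do not explain. Blocking on tumour and number in the sorted cells left 3 receptors called in macrophages against neutrophils and 2 in the difference among tumours. Of all genes 30.2% were then higher and 44.7% lower in the former, and 4610 were called in the latter. With the replicate number as a block, 1 receptor was called in AT3 against E0771 neutrophils and 1 in 2208L against T11 macrophages. Of all genes 1.73% were higher and 1.78% lower in those neutrophils, and 7.66% and 7.7% in those macrophages. Genes with few counts, Csf2 outside PyMT-N, Csf3 outside PyMT-N, 4T1 and 2208L, Il34 in sorted cells and Csf1 in T11 macrophages, are limited by depth.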

Other observations

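The receptor genes stayed below 10 times the background in all 8 cultured lines. Csf1r had 2.91 to 14.1 CPM, Csf2rb 1.93 to 12.1 CPM, Csf3r 1.66 to 12.3 CPM and Csf2ra 0 to 2.28 CPM over the 24 libraries. In 12 of the 32 combinations of a receptor and a line the level per base of exon was at least 5 times the background, and in 0 was it at least 10 times. Csf3r was among those 12 in all 8 lines, at 5.43 to 6.45 times the background. The share of all genes that pass either threshold is not given here, so these counts have no share to be set against.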
